A study of Mus musculus with 10 samples.

Results

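The genes carried by the mitochondrial genome were examined in RNA of the pituitary intermediate lobe (IL). Genes were taken as members when the Ensembl identifier of a row maps to a mouse symbol that starts with mt-. The annotation holds 37 such genes, of which 13 encode proteins, 2 encode rRNAs and 22 encode tRNAs, and 33 of the 29527 genes in the table are among them. The tRNA genes mt-Tf, mt-Ti, mt-Td and mt-Tt were not analysed here.

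RNA was taken from the dissected IL, the melanotroph-rich lobe of the pituitary, of male and female mice of mixed background aged 2 to 3 months. There were 4 WT, 3 p27-/- and 3 p27-/-;Sox2+/- samples, so that every mutant lacked p27 (Cdkn1b, a cell cycle inhibitor). The compound mutants also carried 1 functional copy of Sox2, a transcription factor of pituitary stem cells that melanotrophs express at a lower level. Both mutations were constitutive, so that all cell types of the dissected lobe carried them. Nothing in the labels states how samples were spread over litters or days, and the p-values measure the spread between these samples. The authors deposited 1 table of log2 values normalized for library size, with the transformation not stated, and the depth per sample is unknown from it. Cdkn1b was between 8.39 and 8.85 on this log2 scale in WT, between 8.04 and 8.27 in p27-/- and between 7.73 and 8.10 in p27-/-;Sox2+/- samples, so that all mutants were below all WT. Sox2 was between 7.34 and 7.75 in WT, between 7.08 and 7.45 in p27-/- and between 6.88 and 7.07 in p27-/-;Sox2+/- samples. The melanotroph markers had a summed level between 18.09 and 19.07 (log2) in all samples, most of it from Pomc (18.00 to 19.00). Markers of the other tissues around the IL were present in every sample: the anterior lobe hormone genes had a summed level between 12.76 and 17.76 and the posterior lobe markers between 8.74 and 10.63.

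Mammalian mitochondrial DNA is a small circle that is transcribed from both strands into long precursors, which are cut at the tRNAs into separate mRNAs and rRNAs. Its protein genes all encode subunits of the respiratory chain and of ATP synthase, which work only together with subunits made from nuclear genes. The RNA polymerase (Polrmt), the factors that package and transcribe the DNA (Tfam) and the proteins that process and stabilize the transcripts (Lrpprc) are nuclear-encoded.

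The members lie so close together that some share bases, and these shared stretches bear on the counts of single genes because the authors' counting did not use strand. The gene pair mt-Atp8 and mt-Atp6, both subunits of ATP synthase, shares 43 bases (MT:7927-7969, GRCm38), and mt-Nd4l and mt-Nd4 of complex I share 7. The ends of mt-Nd5 and mt-Nd6 overlap by 14 bases on opposite strands, and the end of mt-Co1 lies over 3 bases of mt-Ts1, the gene of a serine tRNA on the other strand. The coding sequences below, from the GENCODE transcripts of mouse, show the shared bases in capitals, for mt-Atp8 in full and for the other genes as the last 60 bases.
mt-Atp8: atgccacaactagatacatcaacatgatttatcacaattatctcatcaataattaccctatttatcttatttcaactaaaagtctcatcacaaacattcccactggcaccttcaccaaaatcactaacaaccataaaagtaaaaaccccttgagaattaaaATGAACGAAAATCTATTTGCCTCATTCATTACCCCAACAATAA
mt-Nd4l: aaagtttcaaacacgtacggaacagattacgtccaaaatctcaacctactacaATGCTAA
mt-Nd5: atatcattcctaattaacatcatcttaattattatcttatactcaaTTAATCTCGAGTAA
mt-Nd6: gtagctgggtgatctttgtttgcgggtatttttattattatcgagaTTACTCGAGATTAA
mt-Co1: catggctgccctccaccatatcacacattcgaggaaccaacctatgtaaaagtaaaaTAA

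Nuclear copies of mitochondrial DNA bear on the same counts. In the NCBIM37 genome, the mitochondrial chromosome matched the nuclear chromosomes in 8 stretches of at least 100 bases with at least 95% identity. The longest was 4654 bases on chromosome 1 (chr1:24618374-24623027, minus strand) with 2 mismatches and 1 gap base, an identity of 99.936%. It covers mt-Co2, mt-Atp8, mt-Atp6, mt-Co3, mt-Nd3, mt-Nd4l and mt-Ts1 whole, 31.3% of mt-Co1 and 63.6% of mt-Nd4, and none of mt-Nd1, mt-Nd2, mt-Nd5, mt-Nd6, mt-Cytb or the rRNAs. Reads from these genes could be divided between the mitochondrial gene and its copy, so that the levels of the 6 protein genes inside the stretch are uncertain. Shorter matches lie over members as well. One of 3260 bases on chromosome 2 (97.362% identity) covers mt-Co1 whole and part of mt-Nd2. Matches on chromosomes 5, 13 and 10 lie over parts of mt-Nd2, mt-Nd5 and mt-Rnr2. How far any of these matches moved the levels was not tested.

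Most mitochondrial rRNA and protein genes were among the genes with the highest values in the IL libraries. These values come from amplified cDNA, and the ranks are not divided by gene length. The large rRNA gene mt-Rnr2 (ENSMUSG00000064339, MT:1094-2675, plus strand) ranked 1 by mean log2 value among the 17268 tested genes and the small rRNA gene mt-Rnr1 (ENSMUSG00000064337, MT:70-1024) ranked 3. The mRNAs of mt-Co1, mt-Cytb, mt-Nd4 and mt-Nd5 ranked from 7 to 10, and the lowest mRNA, mt-Nd3, ranked 831. All 15 rRNA and protein genes were therefore far above the minimum for testing, a mean of 10 in linear units (log2 3.32).

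Divided by gene length, the order of the levels was led by the rRNAs. The level per kilobase (log2) was 20.44 for mt-Rnr2 and 19.21 for mt-Rnr1 over the 10 samples, and mt-Rnr2 was higher in 10 of 10 samples, by 1.23 ± 0.23 (SD, n = 10) on the log2 scale. The step from mt-Rnr1 to the highest mRNA, mt-Cytb of complex III, was 3.14 ± 0.15 (SD, n = 10). Among the mRNAs the order went from mt-Cytb over mt-Co1, mt-Nd4, mt-Nd5, mt-Atp8, mt-Nd1, mt-Co2, mt-Nd4l, mt-Nd2, mt-Co3, mt-Nd6 and mt-Atp6 to mt-Nd3. It is an order of values per length and not of transcript number, since mt-Atp8 (14.70) and mt-Atp6 (12.81) share a transcript. Only 4 of the 12 steps between neighbouring mRNAs had the same sign in 10 of 10 samples: mt-Nd4 above mt-Nd5 by 0.77 ± 0.09, mt-Nd1 above mt-Co2 by 0.61 ± 0.20, mt-Nd6 above mt-Atp6 by 0.56 ± 0.22 and mt-Atp6 above mt-Nd3 by 0.56 ± 0.28 (log2, SD, n = 10). Of the genes in these steps, mt-Co2, mt-Atp6 and mt-Nd3 lie whole inside the copy on chromosome 1, so that their levels are uncertain. The step from mt-Co1 to mt-Nd4 was 0.38 ± 0.18 and had 1 sign in 9 of 10 samples. The other 7 steps were smaller than their SD, and mt-Cytb and mt-Co1, for example, differed by 0.09 ± 0.15. The gene mt-Nd6, the only protein gene read from the opposite strand, had a level per kilobase close to that of mt-Co3, with a difference of 0.10 ± 0.25 (SD, n = 10). Since the counting did not use strand, the value of mt-Nd6 can hold reads of both strands.

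**Figure D1:**
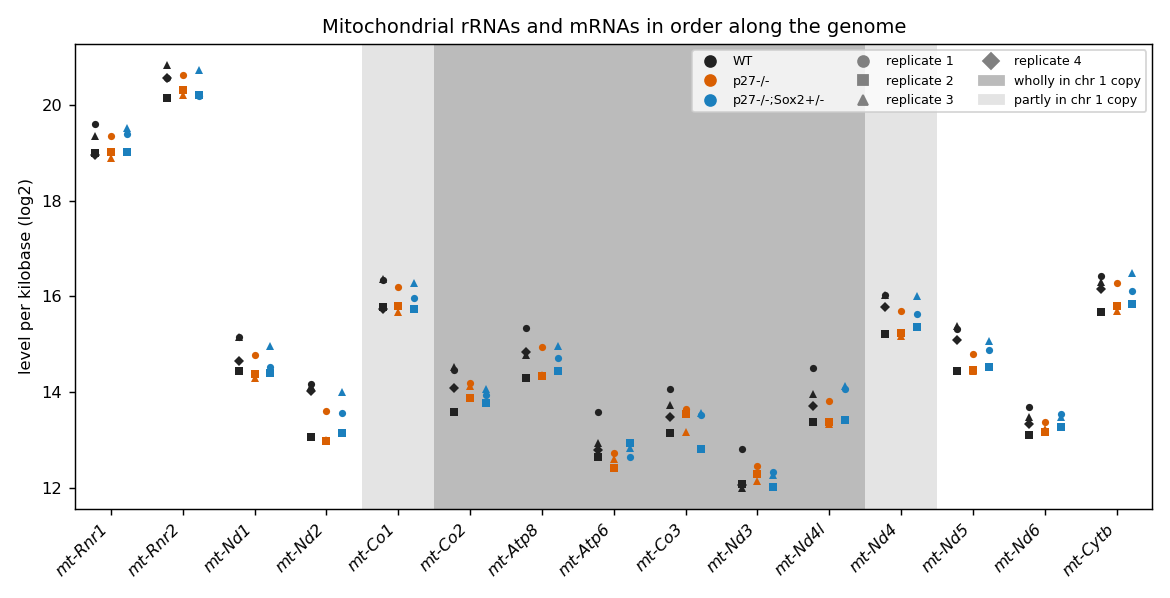
Level per kilobase (log2) of the 2 rRNA and 13 protein genes in each of the 10 samples, in their order along the mitochondrial genome, with 1 point per sample, colour for genotype and shape for replicate number; dark grey marks genes wholly and light grey genes partly inside the copy on chromosome 1. On average mt-Rnr1 stands 3.14 (log2) above mt-Cytb, the highest mRNA, and the 3 genotypes overlap in every gene.

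The tRNA genes were nearly all at the bottom of the table. Of the 18 in the table, 16 were below the minimum for testing, with means from -1.88 to 2.48 (log2), and 11 had a mean below 0. The largest range over the 10 samples among these 16 was 0.26, so that their values hardly varied. The 2 tested tRNA genes were mt-Ts1, with a mean of 6.74, and mt-Te (a glutamate tRNA), which lay just above the minimum with 3.72. The highest gene just below the minimum was mt-Tl1, a leucine tRNA, with 2.48. Whether such values measure mature tRNAs was not tested.

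All mitochondrial genes together held between 22.8% and 32.3% of the summed linear values of a sample. The share was 28.9%, 23.3%, 32.3% and 29.0% in WT replicates 1 to 4, 28.2%, 23.8% and 22.8% in p27-/- replicates 1 to 3, and 25.05%, 23.8% and 31.2% in p27-/-;Sox2+/- replicates 1 to 3. The genotypes overlapped, with a mean share of 28.4% ± 3.76 (SD) in the 4 WT, 24.9% ± 2.86 in the 3 p27-/- and 26.7% ± 3.95 in the 3 p27-/-;Sox2+/- samples. Most of it was rRNA, since mt-Rnr2 alone held between 16.2% and 23.3%. The 13 mRNAs together held between 2.66% and 3.97% in WT, between 2.52% and 3.25% in p27-/- and between 2.76% and 3.74% in p27-/-;Sox2+/- samples. The ratio of mitochondrial rRNA to mRNA averaged 7.20 ± 0.64 (SD) in the 4 WT, 7.97 ± 0.28 in the 3 p27-/- and 7.22 ± 0.49 in the 3 p27-/-;Sox2+/- samples, and the lowest p27-/- value of 7.67 lay below the highest WT value of 7.73. In bulk tissue, fewer cells of a type and less RNA per cell cannot be told apart.

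**Figure D2:**
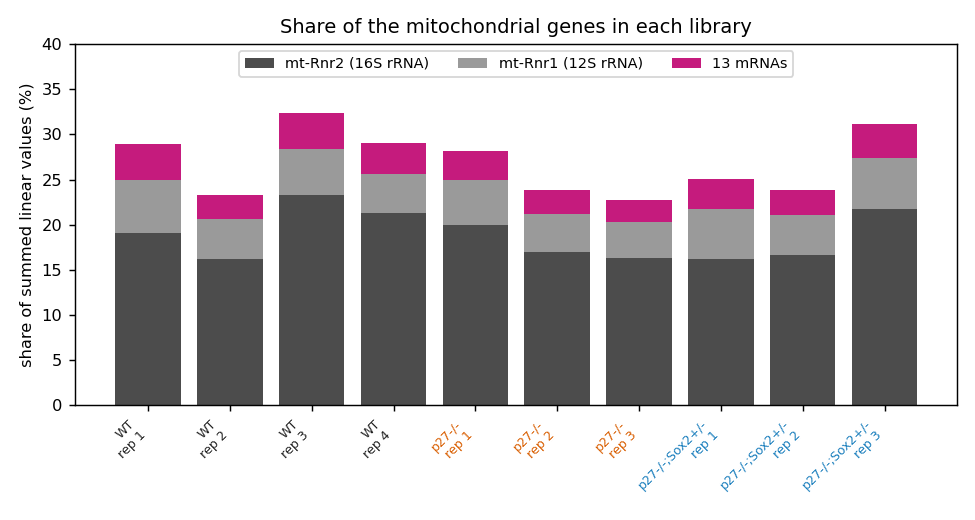
Share (%) of the summed linear values of each library that came from mt-Rnr2, mt-Rnr1 and the 13 mRNAs, as stacked bars for the 10 samples. The total runs from 22.8% to 32.3%, and each genotype holds at least 1 sample with less than 25%.

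The first comparison asked whether loss of p27 went with a change of the mitochondrial transcripts. No member passed the threshold: by limma, with p-values adjusted by the Benjamini-Hochberg method across the 17268 genes tested, 0 of the 17 tested members were under 0.05, against 7.78% of all tested genes. At an unadjusted p under 0.05 there were 3 members, mt-Nd2, mt-Nd5 and mt-Atp6, against 24.1% of all tested genes. With a sample left out, this number ran from 0 (without WT replicate 3 or p27-/- replicate 2 or 3) to 8 (without WT replicate 2). Over all tested genes it ran from 3183 to 4663. The members leaned to lower values, with a lower mean in p27-/- in 15 of 17 (48.4% of all tested genes) and a median log2 difference of -0.16 (0.01 over all tested genes). No member had p27-/- samples that lay wholly apart from the WT samples, against 20.6% of all tested genes.

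The largest differences were in complex I, the NADH dehydrogenase. Its subunit mt-Nd2 (ENSMUSG00000064345, MT:3914-4951) was at 14.23, 13.12, 14.19 and 14.09 (log2) in WT, 13.67, 13.03 and 13.05 in p27-/-, and 13.62, 13.19 and 14.06 in p27-/-;Sox2+/- samples. WT replicate 2 lay below the other WT samples and within the range of the p27-/- samples. The log2 difference between p27-/- and WT was -0.66 (standard error 0.26, 95% interval -1.22 to -0.10, limma, Benjamini-Hochberg adjusted p = 0.138). Without WT replicate 2 it was -0.92 and passed the threshold (adjusted p = 0.0148), and without p27-/- replicate 2 it was -0.55.

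The subunit mt-Nd5 (ENSMUSG00000064367, MT:11742-13565) also had a low WT replicate 2. It was at 16.19, 15.30, 16.25 and 15.96 (log2) in WT, 15.67, 15.33 and 15.31 in p27-/-, and 15.75, 15.40 and 15.93 in p27-/-;Sox2+/- samples. WT replicate 2 was below every p27-/- sample and the other 3 WT samples were above them. Its log2 difference was -0.49 (standard error 0.21, 95% interval -0.94 to -0.04, limma, Benjamini-Hochberg adjusted p = 0.169). Without WT replicate 2 it was -0.70 (adjusted p = 0.0200), and without WT replicate 3 it was -0.38. The other complex I members had log2 differences of -0.39 (mt-Nd4), -0.38 (mt-Nd4l), -0.36 (mt-Nd1), -0.15 (mt-Nd6) and 0.06 (mt-Nd3), with a median of -0.38 over the 7. None of these passed the threshold with all samples, and without WT replicate 1 that of mt-Nd4l was -0.17.

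In ATP synthase (complex V), mt-Atp6 (ENSMUSG00000064357, MT:7927-8607) was at 13.03, 12.09, 12.39 and 12.23 (log2) in WT, 12.18, 11.86 and 12.04 in p27-/-, and 12.09, 12.38 and 12.28 in p27-/-;Sox2+/- samples. WT replicate 1 stood above all other samples, and the remaining WT values overlapped both mutants. The log2 difference between p27-/- and WT was -0.41 (standard error 0.17, limma, Benjamini-Hochberg adjusted p = 0.170), and without WT replicate 1 it was -0.21. For mt-Atp8 it was -0.28 (adjusted p = 0.456), and ran from -0.48 without p27-/- replicate 1 to -0.10 without WT replicate 1. Smaller differences were found in cytochrome oxidase (complex IV), with -0.16 for mt-Co1, -0.10 for mt-Co2 and -0.15 for mt-Co3, and in the complex III subunit mt-Cytb, with -0.22. Both rRNAs differed by -0.14, and the 95% intervals of -0.65 to 0.37 for mt-Rnr1 and -0.81 to 0.52 for mt-Rnr2 held changes of either sign.

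The second comparison set p27-/-;Sox2+/- against the same WT samples. By limma with Benjamini-Hochberg adjustment 0 of 17 members were called (2.71% of all tested genes), and 0 had an unadjusted p under 0.05 (17.8%). The groups overlapped in every member, while 15.0% of all tested genes had no overlap. The mean was lower than in WT in 13 of 17 members (47.9% of all tested genes), and the median log2 difference was -0.11 (0.01 over all tested genes). The largest was -0.31 in mt-Co3 (95% interval -0.76 to 0.14), the third core subunit of cytochrome oxidase. The values of mt-Co3 were 13.71, 12.80, 13.38 and 13.14 (log2) in WT and 13.17, 12.47 and 13.21 in p27-/-;Sox2+/- samples, of which only replicate 2 was below every WT sample. Without that replicate the difference was -0.067. For mt-Nd2 the difference was -0.28 and for mt-Nd5 -0.23.

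The third comparison asked whether the loss of 1 copy of Sox2 went with a change when p27 was absent. With limma and Benjamini-Hochberg adjustment 0 of 17 members were called (0.145% of all tested genes, 25 genes), 0 had an unadjusted p under 0.05 (6.65%), and 0 were without overlap (15.3%). Here 5 of 17 members had a lower mean in p27-/-;Sox2+/- (51.4% of all tested genes), namely mt-Rnr2, mt-Ts1, mt-Co2, mt-Co3 and mt-Nd3, and the median log2 difference of the 17 was 0.16. The 7 complex I members had a median of 0.26, from -0.09 in mt-Nd3 to 0.38 in mt-Nd2, whose 95% interval was -0.22 to 0.97. The 3 comparisons share samples, and a WT or p27-/- sample that stands apart moves 2 of them together.

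**Figure D3:**
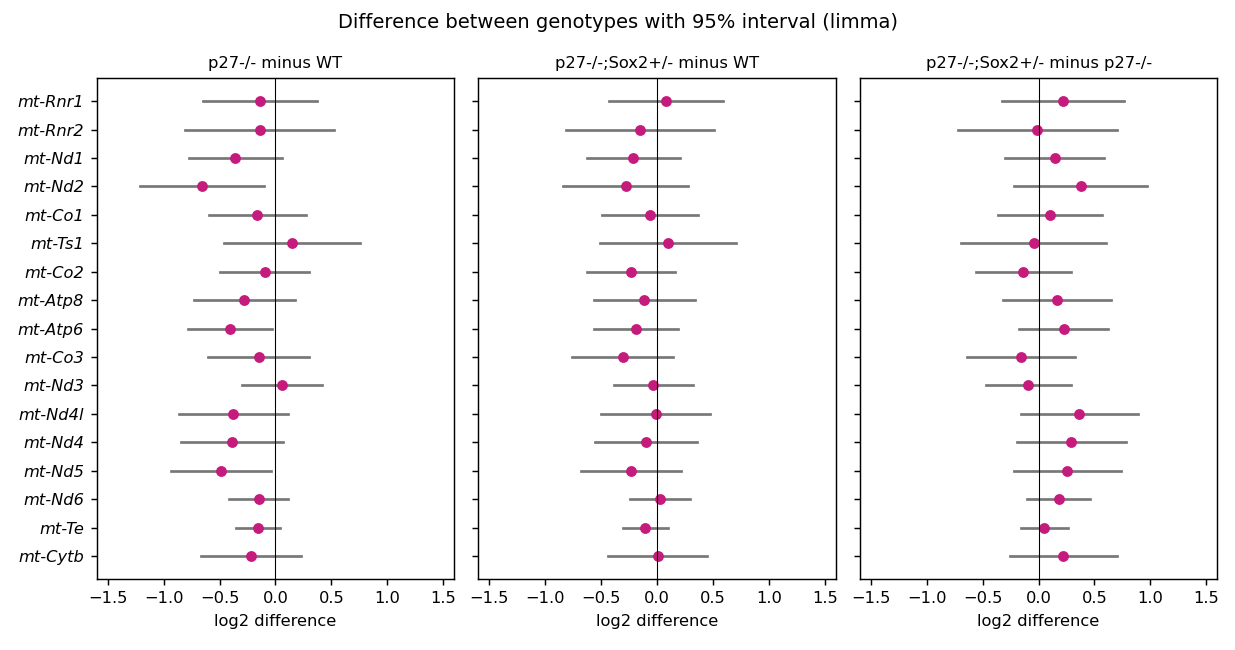
Log2 difference (points) and 95% interval from limma (bars) of the 17 tested members for p27-/- minus WT, p27-/-;Sox2+/- minus WT and p27-/-;Sox2+/- minus p27-/-. In p27-/- minus WT, 15 of 17 points lie below 0, and only the intervals of mt-Nd2, mt-Nd5 and mt-Atp6 leave out 0 before adjustment.

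The tRNA gene mt-Ts1 was decided by 1 library. It was at 7.78, 6.41, 6.15 and 6.31 (log2) in WT, 6.89, 6.82 and 6.72 in p27-/-, and 6.75, 6.75 and 6.78 in p27-/-;Sox2+/- samples. WT replicate 1 lay above all mutants and the other 3 WT samples below all of them. With all samples the log2 difference was 0.15 in p27-/- and 0.10 in p27-/-;Sox2+/-, and neither passed the threshold (limma, Benjamini-Hochberg adjusted p = 0.801 and 0.893). Without WT replicate 1 both passed the limma threshold. The log2 difference was then 0.52 in p27-/- (adjusted p = 0.0151), and the compound mutant had 0.47 (adjusted p = 0.0396). The same library was the highest for mt-Te, at 4.04 against 3.58 to 3.74 in all others. It shares 3 bases with mt-Co1 and lies whole inside the copy on chromosome 1, and how far reads of either entered its values was not tested.

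The spread within a genotype was larger for the mitochondrial genes than for most genes. The within-genotype SD had a median of 0.32 (log2) over the 17 members, against 0.15 over all tested genes and 0.13 over the 1687 genes with a mean log2 value of at least 10. For 15 of the 17 members between 92.4% and 99.0% of tested genes had a smaller SD, and the exceptions were mt-Nd6 (71.1%) and mt-Te (22.6%). From the lowest to the highest WT sample, mt-Nd2 ranged over 2.16-fold, mt-Nd4l over 2.19-fold and mt-Rnr2 over 1.61-fold.

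The members moved together from library to library. In WT, replicate 2 was the lowest in 12 of the 15 rRNA and protein genes, replicate 1 the highest in 11 and replicate 3 in the remaining 4. In p27-/-, replicate 1 was the highest in 15 of 15, replicate 3 the lowest in 10 and replicate 2 in 5. In p27-/-;Sox2+/-, replicate 3 was the highest in 12 and replicate 2 the lowest in 13. Across the 10 samples the 78 pairs of mRNAs had Pearson correlations from 0.305 to 0.98, with a median of 0.78, as a description of values that share the same libraries.

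**Figure D4:**
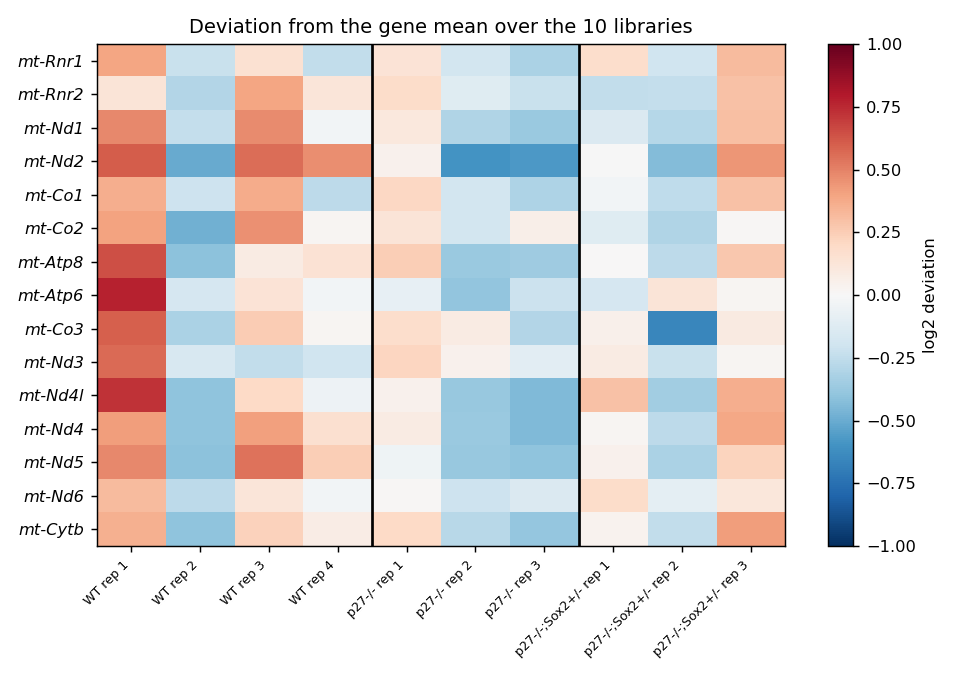
Log2 deviation of each sample from the mean of the gene over the 10 samples for the 2 rRNA and 13 protein genes in genome order, with columns for samples and black lines between genotypes. Whole columns take 1 colour: WT replicate 1 is high and WT replicate 2, p27-/- replicates 2 and 3 and p27-/-;Sox2+/- replicate 2 are low for most genes.

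Markers of the adjoining posterior lobe followed this order in part. The mean centred log2 value of the 13 mRNAs was 0.52, -0.34, 0.28 and 0.04 in WT, 0.10, -0.27 and -0.31 in p27-/-, and 0.02, -0.27 and 0.23 in p27-/-;Sox2+/- replicates. The mean centred log2 value of the 6 posterior lobe markers (Avp, Oxt, Rax, Nkx2-1, Col25a1 and Slc1a3) was 0.59, -0.51, 0.68 and 0.79 in WT, -0.37, -0.31 and -0.03 in p27-/-, and -0.58, -0.71 and 0.45 in p27-/-;Sox2+/- replicates. The 4 samples with posterior lobe markers above 0 all had mitochondrial mRNAs above 0, and the 6 below 0 held the 4 lowest mitochondrial values. The remaining samples, p27-/- replicate 1 and p27-/-;Sox2+/- replicate 1, had posterior lobe markers below 0 and mitochondrial mRNAs above 0, and within p27-/- the sample with the highest mRNAs had the lowest posterior lobe markers. None of the 6 markers was at 0, Avp for instance lying between 4.20 and 5.83 (log2), and all 6 had a lower mean in both mutants than in WT. By limma 0 of 6 passed in any comparison. At an unadjusted p under 0.05 there were 3 in p27-/- against WT (24.1% of all tested genes), 2 in the compound mutant against WT (17.8%) and 0 between the mutants (6.65%). WT replicate 2, the lowest sample for mitochondrial mRNAs, had the most anterior lobe hormone RNA, with a mean centred value of 1.85 against -1.13 to 0.69 in the others. Within each mutant it was the reverse. The sample with the most anterior lobe hormone RNA, p27-/- replicate 1 (0.69) or p27-/-;Sox2+/- replicate 3 (0.15), had the highest mitochondrial mRNAs of its genotype. By limma, Fshb (1 of 5 anterior lobe genes) was lower in both mutants than in WT (Benjamini-Hochberg adjusted p = 0.0280 and 0.0294). Pcsk2 (1 of 4 melanotroph markers) was higher in p27-/- (0.0352), and Kdr (1 of 4 endothelial markers) was lower in both mutants (0.00966 and 0.0459). Of all tested genes, 7.78% and 2.71% were called in these comparisons. The part of anterior and posterior lobe tissue in the mitochondrial values was not tested.

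Relative to the mean of the 13 mRNAs in the same sample, most of the library differences were removed and the balance between members could be compared. In p27-/- against WT, 1 of 17 members had no overlap on this relative scale, mt-Nd5, where 3.61% of all tested genes had none. Its relative level (log2) was 1.88, 1.84, 2.18 and 2.12 in WT, 1.77, 1.80 and 1.82 in p27-/-, and 1.94, 1.87 and 1.91 in p27-/-;Sox2+/- samples. All p27-/- samples were below all others, narrowly so for WT replicate 2. The compound mutants overlapped with WT in all 17 members (0 of 17, against 1.49% of all tested genes).

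Between the mutants, 5 of 17 members had no overlap on the relative scale (3.72% of all tested genes). In p27-/-;Sox2+/- samples mt-Nd4 and mt-Nd5 of complex I were higher, by 0.14 and 0.11 on the log2 scale, and mt-Rnr2, mt-Co2 and mt-Nd3 were lower, by 0.16, 0.29 and 0.24. A gene outside the mitochondrial genome carries the whole library difference on this scale, so that the share over all genes is no like measure of the members. Each mRNA is part of the mean it is set against, so that higher values of some go with lower values of others. The shifts of single mRNAs are therefore not separate results. These relative levels were described and not tested.

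For mt-Atp6 and mt-Atp8, which share bases and a transcript, the log2 difference, not divided by length, was between -0.47 and 0.24 without separating the genotypes. The difference between mt-Rnr2 and mt-Rnr1 averaged 2.03 ± 0.29 (SD) over the 4 WT, 2.03 ± 0.03 over the 3 p27-/- and 1.80 ± 0.22 over the 3 p27-/-;Sox2+/- samples.

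In each comparison the median mRNA difference was larger in size outside the copy on chromosome 1 than wholly inside it, but single genes did not follow their position. The 5 mRNAs outside it (mt-Nd1, mt-Nd2, mt-Nd5, mt-Nd6 and mt-Cytb) had a median log2 difference of -0.36 between p27-/- and WT, the 6 wholly inside one of -0.21, and mt-Co1 and mt-Nd4, partly inside, one of -0.28. In p27-/-;Sox2+/- against WT the medians were -0.21 outside, -0.15 inside and -0.08 for the partial genes. In p27-/-;Sox2+/- against p27-/- they were 0.22 outside, 0.037 inside and 0.20 for the partial genes. The mRNAs with a lower mean there, mt-Co2, mt-Co3 and mt-Nd3, were all inside. So were mt-Atp8, mt-Atp6 and mt-Nd4l, which had a higher mean, by 0.16, 0.22 and 0.37 (log2). Under quantile normalization mt-Co2 had a log2 difference of 0.014. These sets rest on the longest match alone. A shorter match on chromosome 2 covers mt-Co1 whole. Of the mRNAs outside the copy, mt-Nd2 lies partly inside matches on chromosomes 2 and 5, and mt-Nd5 partly inside one on chromosome 13. The ranges of single genes overlapped between the sets, and no test was made.

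Among all other tested genes, those most like the mean of the 13 mRNAs across the 10 samples were Kcna1 (Pearson r = 0.942, mean log2 3.39), a potassium channel gene close to the minimum for testing, ENSMUSG00000100862 (r = 0.939), and Tubb4 (r = 0.921), a tubulin gene. The other 2 of the first 5 also had no symbol in the tables used here. The tables did not pair ENSMUSG00000100862 with a name, and whether it is a nuclear copy that took reads of the mitochondrial genes was not tested. Its level was that of a mitochondrial mRNA: 15.41, 14.43, 14.98 and 15.14 (log2) in WT, 15.13, 14.57 and 14.54 in p27-/-, and 14.91, 14.59 and 15.12 in p27-/-;Sox2+/- samples. Its log2 difference between p27-/- and WT was -0.24 (limma, Benjamini-Hochberg adjusted p = 0.523). Further down, at r = 0.901, another identifier without a symbol had a mean log2 value of 14.63. Whether it took reads of the mitochondrial genes was not tested either.

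The nuclear genes that serve the mitochondrial genome mostly had higher means in p27-/- than in WT samples, and few of them passed the test. Of all tested genes, 48.4% had a lower mean in p27-/-. Among 22 genes of mitochondrial DNA transcription and replication, 20 had a higher mean in p27-/- and the median log2 difference was 0.17. Only Top1mt, the mitochondrial topoisomerase, passed the limma threshold, with 0.42 (standard error 0.11, Benjamini-Hochberg adjusted p = 0.0379). The polymerase gene Polrmt differed by 0.02 (adjusted p = 0.918) and Tfam by 0.19 (adjusted p = 0.306). Over the 7 lists together, 7 of 246 genes passed in p27-/- against WT and 46 had an unadjusted p under 0.05, below the shares of all tested genes (7.78% and 24.1%).

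Of 30 genes of mitochondrial RNA processing and turnover, 23 had a higher mean, with a median log2 difference of 0.11. Mtpap, which adds poly(A) tails to mitochondrial mRNAs, rose by 0.36 (standard error 0.10, limma, Benjamini-Hochberg adjusted p = 0.0491), while Lrpprc, which stabilizes these mRNAs, differed by 0.02 (adjusted p = 0.881). Of 77 mitochondrial ribosomal protein genes, 68 had a higher mean, with a median of 0.14, and 1 passed, Mrps5, with 0.34 (adjusted p = 0.0418).

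The partners of the mitochondrial subunits in the respiratory chain were 78 tested nuclear genes, and 66 of them had a higher mean in p27-/-, with a median log2 difference of 0.11 against -0.28 for the 13 mitochondrial mRNAs. Atp5b, the catalytic subunit of ATP synthase, was at 12.96, 12.79, 12.95 and 12.80 (log2) in WT and 13.24, 13.20 and 13.12 in p27-/- samples, and passed the threshold with 1 other gene. All p27-/- samples were above all WT samples, by a log2 difference of 0.31 (standard error 0.08, limma, Benjamini-Hochberg adjusted p = 0.0406). Cox7c, a small subunit of cytochrome oxidase, rose by 0.40 (standard error 0.11, adjusted p = 0.0429). The difference between the nuclear and the mitochondrial subunits was not tested.

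Of 15 markers of mitochondrial mass, 15 had a higher mean in p27-/-, with a median log2 difference of 0.17, and 0 passed the threshold by limma. At an unadjusted p under 0.05 there were 6, where 24.1% of all tested genes had such a p. Of 11 regulators of mitochondrial biogenesis, 9 had a higher mean and 0 passed by limma (3 at an unadjusted p under 0.05, against the same 24.1%). Ppargc1a, a coactivator that drives biogenesis, was between 8.48 and 8.55 (log2) in WT, between 8.52 and 8.72 in p27-/- and between 8.72 and 8.94 in p27-/-;Sox2+/- samples. The compound mutants were all above WT, by 0.32 on the log2 scale (standard error 0.09, limma, Benjamini-Hochberg adjusted p = 0.0735), and p27-/- overlapped with WT, by 0.10 (adjusted p = 0.516).

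A further list held 15 genes of mitophagy and of fission and fusion. Bnip3, a mitophagy receptor of the outer membrane that is induced by low oxygen, was at 8.43, 8.81, 8.41 and 8.38 (log2) in WT, 8.94, 9.07 and 9.12 in p27-/-, and 8.55, 8.94 and 8.91 in p27-/-;Sox2+/- samples. The p27-/- samples were all above WT, and the compound mutants overlapped with both. Bnip3 rose by 0.53 in p27-/- (standard error 0.13, limma, Benjamini-Hochberg adjusted p = 0.0230), while its log2 difference in p27-/-;Sox2+/- was 0.29 (adjusted p = 0.236). The median log2 difference of the 15 genes was 0.04 in p27-/-.

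In p27-/-;Sox2+/- against WT, 1 of the 246 genes of these 7 lists passed by limma, where 2.71% of all tested genes were called. The list medians were smaller than in p27-/- but had the same sign, with 0.16 for transcription and replication, 0.08 for ribosomal proteins and 0.05 for the nuclear respiratory chain. Between the mutants 0 of the 246 passed by limma and 11 had an unadjusted p under 0.05 (6.65% of all tested genes). The calls of Top1mt, Mtpap, Mrps5, Atp5b and Cox7c were lost in 10, 15, 14, 12 and 13 of 20 alternative settings, among them a replicate left out, whereas that of Bnip3 was kept in 16. Scaling to the nuclear genes moved the median of all tested genes in p27-/- against WT from 0.01 to -0.08, and lowered every list median as much. Atp5b then had 0.22 and Mtpap 0.27, and neither passed the limma threshold.

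**Figure D5:**
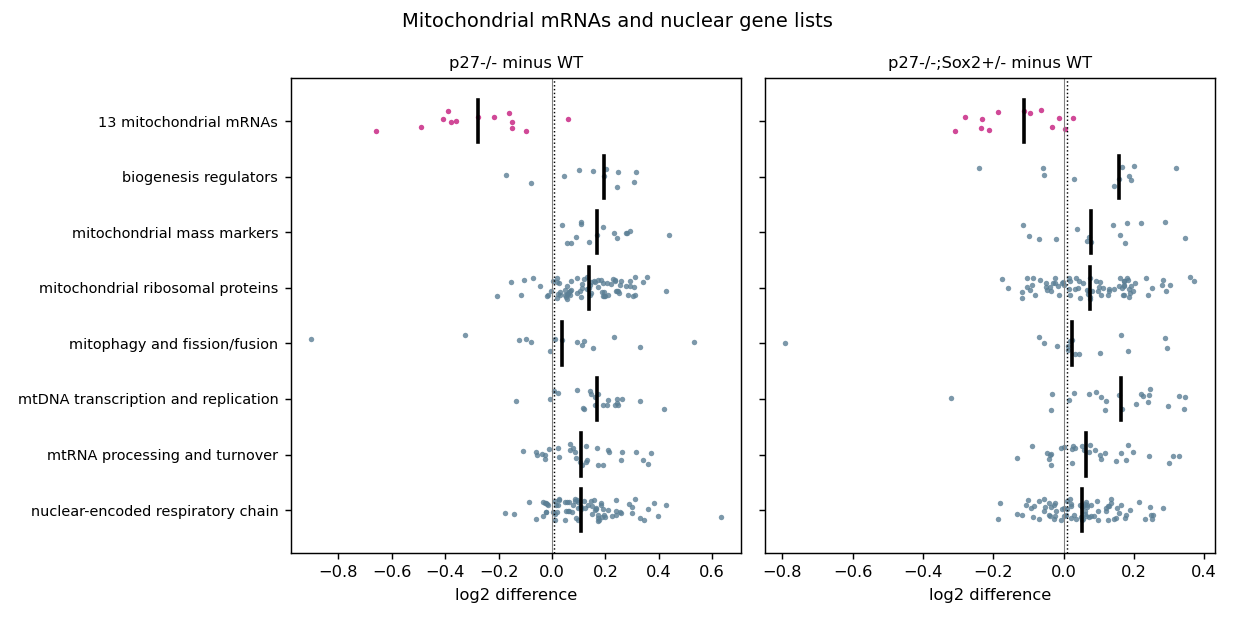
Log2 difference of the 13 mitochondrial mRNAs (pink) and of the tested genes of 7 nuclear lists (blue), 1 point per gene, for p27-/- minus WT and p27-/-;Sox2+/- minus WT; black bars mark list medians and the dotted line the median of all tested genes. In p27-/- minus WT the mRNAs have a median of -0.28 and the nuclear respiratory chain one of 0.11.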

How the data were processed

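RNA of the dissected IL was extracted on RNeasy Micro columns, amplified as cDNA with the Ovation RNA-seq System V2 and sequenced on a HiSeq instrument. Per the labels and the study's methods, the authors aligned reads with STAR 2.5.2a, counted genes with RSEM 1.3.30 on the Ensembl GRCm38 transcriptome without using strand, and normalized with DESeq2 1.18.1. They deposited log2 values for 29527 genes and 10 samples. The transformation is not stated, genes with low values hardly varied between samples, and the depth per sample is unknown.

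Symbols were found for 22709 identifiers. Genes with a linear mean of 10 or more (log2 3.32, 17268 genes) were tested with limma 3.58.1 in R 4.3.3 (1 fit of 3 genotypes, mean-variance trend, Benjamini-Hochberg adjustment over all tested genes, threshold 0.05). The model was tested on simulated data. Gene positions come from GENCODE and equal those of RefSeq GRCm38 for all 37 genes. Nuclear copies were sought in NCBIM37 with blastn 2.17.0. Shares are of the summed linear values.

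The members, lists and tests were chosen with earlier results of these data known. All mitochondrial genes could be named, as could list genes past the threshold (at most 5 per list and comparison), Polrmt, Tfam, Lrpprc, Ppargc1a and Bnip3, the 5 other genes most like the mRNAs, and Cdkn1b and Sox2. A list of annotated nuclear copies could not be matched by symbol and was left out. The values of 1 list gene are not reported here. Alternatives were other filters, fits, weights and normalizations, a replicate block, Xist as a covariate and each sample left out.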

Additional observations from a re-analysis of the deposited data

Results flagged for a closer look

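Of 33 measures of the 4 WT samples, 5 had 1 sample farther from the rest than Dixon's 95% critical value allows for 4 samples, a limit that chance passes in about 1 group in 20. For mt-Nd2, WT replicate 2 was the low sample at 13.12 (log2) against 14.09 to 14.23 in the other WT samples (Dixon ratio 0.869). For mt-Ts1, mt-Nd3 and mt-Te, WT replicate 1 was the high sample, with ratios of 0.845, 0.891 and 0.914. In mt-Nd3 it was at 11.29 against 10.48 to 10.57, in mt-Ts1 at 7.78 against 6.15 to 6.41, and in mt-Te at 4.04 against 3.70 to 3.73. For Bnip3, WT replicate 2 was the high sample at 8.81 against 8.38 to 8.43 (ratio 0.884), and it was below every p27-/- sample. The causes were not tested.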

How the results depend on the processing

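No mitochondrial gene was called in any comparison under 9 of the 10 alternatives that used all samples. Quantile normalization called 2 lower in p27-/- against WT, mt-Nd1 (-0.66) and mt-Nd5 (-0.42), both with an adjusted p of 0.0466 by limma. With a replicate left out, the number called ran from 0 to 2 in p27-/- against WT (2 without WT replicate 2, 1 without WT replicate 1), from 0 to 1 in p27-/-;Sox2+/- against WT (1 without WT replicate 1), and was 0 between the mutants. The counts over all genes with a replicate left out ran from 403 to 1709 (1343 with all samples), from 80 to 658 (468) and from 0 to 41 (25), and those over the 7 lists from 1 to 13 (7), from 0 to 2 (1) and at 0. For p27-/- against WT, all genes called were 831 with no filter, 807 in a fit of 2 groups and 595 with the replicate block, and list genes 3, 2 and 2, with 13 under array weights, 3 under quantile normalization and 2 when scaled to the nuclear genes. For p27-/-;Sox2+/- against WT, all genes called were 260 in a fit of 2 groups, 1240 with array weights and 209 with the replicate block, and list genes 4 with array weights, 0 with the block and 2 with Xist. Between the mutants, all genes called were 6 with no filter, 45 in a fit of 2 groups, 8 with no trend, 283 with array weights, 15 with quantile normalization and 2 with the block, and list genes 1 with array weights. Scaling to the nuclear genes moved the median of all genes from 0.01 to -0.08 in p27-/- against WT, from 0.01 to -0.01 in p27-/-;Sox2+/- against WT and from 0.00 to 0.07 between the mutants, and changed the split of calls in p27-/- against WT from 545 higher and 798 lower to 244 and 1336. Between the mutants it changed from 14 and 11 to 16 and 6, and median centring gave 626 higher and 694 lower in p27-/- against WT. The cause of these shifts was not tested. The mean shares of the mitochondrial genes stayed within 1 SD, but these settings could not test them. Scaling a whole sample leaves its share unchanged, and leaving out 1 sample cannot move a mean by as much as 1 SD. Quantile normalization gives all samples the same set of values and so largely fixes the share. No conclusion on the shares is drawn from these settings.

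Replicate numbers are shared between genotypes in the labels, but same-numbered samples did not deviate together (r from -0.238 to 0.182 across genes for 9 pairs), and the replicate block called 0 mitochondrial genes in each comparison.

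Of the 51 log2 differences of single mitochondrial genes, 27 kept their sign in every setting, and the 24 that changed it were at most 0.23 in size and never passed the threshold under a changed sign. In p27-/- against WT, quantile normalization gave 0.03 for mt-Co1, 0.13 for mt-Cytb and -0.002 for mt-Nd3, which had -0.032 when scaled to the nuclear genes and -0.005 with the block. With a replicate left out, mt-Ts1 ran from -0.024 to 0.52, mt-Co2 from -0.29 to 0.022, mt-Co3 from -0.30 to 0.003 and mt-Nd3 from -0.024 to 0.25. In p27-/-;Sox2+/- against WT, quantile normalization gave -0.066 for mt-Rnr1, 0.03 for mt-Co1, 0.068 for mt-Nd4, 0.12 for mt-Nd5 and 0.001 for mt-Nd4l, the block -0.011 for mt-Rnr1 and -0.017 for mt-Ts1, array weights -0.001 for mt-Nd6 and -0.10 for mt-Cytb, and scaling to the nuclear genes -0.013 for mt-Cytb. With a replicate left out, mt-Rnr1 ran from -0.031 to 0.23, mt-Co1 from -0.21 to 0.066, mt-Ts1 from -0.069 to 0.47, mt-Atp8 from -0.29 to 0.063, mt-Atp6 from -0.30 to 0.012, mt-Nd3 from -0.11 to 0.16, mt-Nd4 from -0.28 to 0.059, mt-Nd6 from -0.072 to 0.12, mt-Cytb from -0.17 to 0.16 and mt-Nd4l from -0.18 to 0.21. Between the mutants, scaling to the nuclear genes gave 0.062 for mt-Rnr2 and 0.027 for mt-Ts1, and quantile normalization 0.014 for mt-Co2. With a replicate left out, mt-Rnr2 ran from -0.19 to 0.11, mt-Nd1 from -0.025 to 0.29, mt-Co1 from -0.046 to 0.25, mt-Co3 from -0.30 to 0.082 and mt-Nd3 from -0.17 to 0.00.

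Read depth could not be taken from the log2 values, so that counting error is unknown and the number of samples limits the precision.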
